A study of Mus musculus with 6 samples.

Results

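The nuclear-encoded subunits of the oxidative phosphorylation complexes were examined in sorted cells of the mouse ascending aorta. Members were chosen by gene name alone, as the *Nduf* (a, b, c, s and v), *Uqcr*, *Cox4* to *Cox8*, *Atp5* and *Sdh* genes of the deposited matrix, with names that mark pseudogenes left out. The rule took 84 of 24421 rows, and the names place 37 in complex I, 4 in complex II, 8 in complex III, 18 in complex IV and 17 in complex V. The cells came from 129S6/SvEv mice that carried the conditional *CAG-Sun1/sfGFP* tracer allele, which puts GFP on the nuclear envelope, together with a Cre allele. The Cre was *Mef2c* SHF in the 3 libraries of the secondary heart field lineage (SHF) and *Wnt1-Cre2* in the 3 libraries of the cardiac neural crest lineage (CNC). Aortic root and ascending aorta were taken from mice at 8 weeks of age, living GFP+ cells were sorted, and cDNA amplified by SmartSeq2 was sequenced. The Cre marks cells by ancestry and not by type, and bulk values cannot tell fewer cells of a type apart from less RNA per cell.

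Oxidative phosphorylation takes place in the inner mitochondrial membrane. Complexes I and II pass electrons from NADH and succinate to ubiquinone, complex III passes them on to cytochrome c, and complex IV passes them to oxygen. Complexes I, III and IV pump protons, and complex V, the ATP synthase, uses the returning protons to make ATP. Most subunits are encoded in the nucleus, while a small set is encoded in mitochondrial DNA. Aortic smooth muscle cells and fibroblasts use oxidative phosphorylation beside glycolysis, and heart and skeletal muscle replace some subunits by isoforms of their own. The comparison asked whether the subunits differed in level between the lineages.

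The deposited values were TPM, transcript levels corrected for length that sum to 1000000 in each library. They keep no record of sequencing depth, so a value of 0 is given here as listed at 0 and not as absence. The number of genes above 0 was between 9255 and 11858, lowest in SHF replicate 2. Fibroblast markers (10 genes) summed to 29221 to 32484 TPM in SHF and 40269 to 54798 TPM in CNC libraries, and smooth muscle markers (10 genes) summed to 1463 to 3076 and 1297 to 1999 TPM. The labels name the cells by lineage only. Cardiomyocyte markers, which matter here because heart muscle is rich in mitochondria, summed to 147 to 198 TPM in SHF and 8.57 to 118 TPM in CNC libraries, with 2 of 14 genes, among them the atrial light chain gene *Myl7*, at 0 in all 6 libraries. Of the 5 tested, 2 were higher in SHF at an unadjusted p below 0.05 by limma, against 2.69% of all genes tested. These were *Tnnt2*, cardiac troponin T, at 21.5, 87.4 and 60.9 TPM in SHF and 22.1, 0 and 0 TPM in CNC replicates, and the light chain gene *Myl3*, at 44.9, 6.54 and 34.9 TPM in SHF libraries and listed at 0 in CNC. *Myh6* and *Actc1* of heart muscle myofibrils were above 0 in SHF replicates 1 and 3 alone. Others of the list, *Pln*, *Myl4*, *Tnni3*, *Ryr2* and *Ttn*, had a higher mean TPM in CNC. The means were 14.4 TPM in SHF and 18.1 TPM in CNC for *Pln*, and 11.2 and 13.0 TPM for *Myl4*. Brown adipocyte markers summed to 20.3 to 84.9 and 0.82 to 24.8 TPM, and 6 of 10 genes, with *Ucp1* and *Cidea*, which define these cells, were at 0 in all 6. The SHF sums were mostly *Fabp3*, a fatty acid carrier that heart muscle also expresses, at 17.3, 84.9 and 70.8 TPM in SHF and 0, 0.48 and 0 TPM in CNC replicates. Endothelial markers (10 genes) summed to 99.5 to 622 TPM in SHF and 24.3 to 73.6 TPM in CNC libraries, leukocyte markers (10 genes) to 0 to 49.0 and 7.96 to 302 TPM, and Schwann cell markers (8 genes) to 1202 to 1387 and 1278 to 1947 TPM. By the same measure 6 of 10 fibroblast markers were higher in CNC, all 6 without overlap, and 3 of 7 tested endothelial markers were higher in SHF. Of the others, 1 of 10 smooth muscle markers and the 1 tested brown adipocyte marker were higher in SHF, 1 of 4 tested Schwann cell markers in CNC, and 0 of 3 tested leukocyte markers in either. The leukocyte sum of 302 TPM was that of CNC replicate 2, while CNC replicates 1 and 3 had 7.96 and 10.4 TPM. The female-specific RNA *Xist* was above 0 in 2 libraries, SHF replicates 2 and 3, and 0 elsewhere, while the Y-linked *Ddx3y* was listed at 0 in those 2 and at 42.2 to 61.3 TPM in the other 4, so that a comparison within either state would leave 1 SHF library or none in CNC. The part of these differences in the results below was not tested.

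The subunit genes together held about the same share of the transcripts in every library. They summed to 20956, 20608 and 21064 TPM in SHF replicates 1, 2 and 3 and to 19290, 20557 and 20224 TPM in CNC replicates 1, 2 and 3. The highest library was 1.092 times the lowest. The share of all TPM was 2.088% ± 0.024 (SD, n = 3) in SHF and 2.002% ± 0.066 (SD, n = 3) in CNC cells. All 3 SHF libraries were above the 3 CNC libraries, but SHF replicate 2 exceeded CNC replicate 2 by little, and the log2 ratio of the means changed from 0.06 to -0.017 when the libraries were rescaled by median-of-ratios factors.

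Complexes I, IV and V each summed to more than complex III, and complex II held the least. Complex I genes summed to 6570 ± 407 TPM in SHF and 6595 ± 716 TPM in CNC cells, and complex V genes to 5604 ± 528 and 5482 ± 392 TPM (SD, n = 3 for each). Complex III genes summed to 2261 ± 280 TPM in SHF and 2028 ± 438 TPM in CNC cells, and the 4 genes of complex II to 451 ± 128 and 522 ± 128 TPM. In each of these complexes the lineages overlapped. Complex IV genes summed to 5791, 6025 and 6152 TPM in SHF and 5887, 5233 and 5068 TPM in CNC replicates, where CNC replicate 1 lay above SHF replicate 1. Per gene, the median level of complex II was the lowest of the 5 complexes in 5 of 6 libraries, and that of complex V was the highest in 5 of 6. These medians count every member. Of the 18 of complex IV, 4 were at 0 in all 6 libraries and 11 were above 0 in all 6, which lowers its median. The rank of complex V above complex IV therefore depends on counting these isoform genes.

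**Figure D1:**
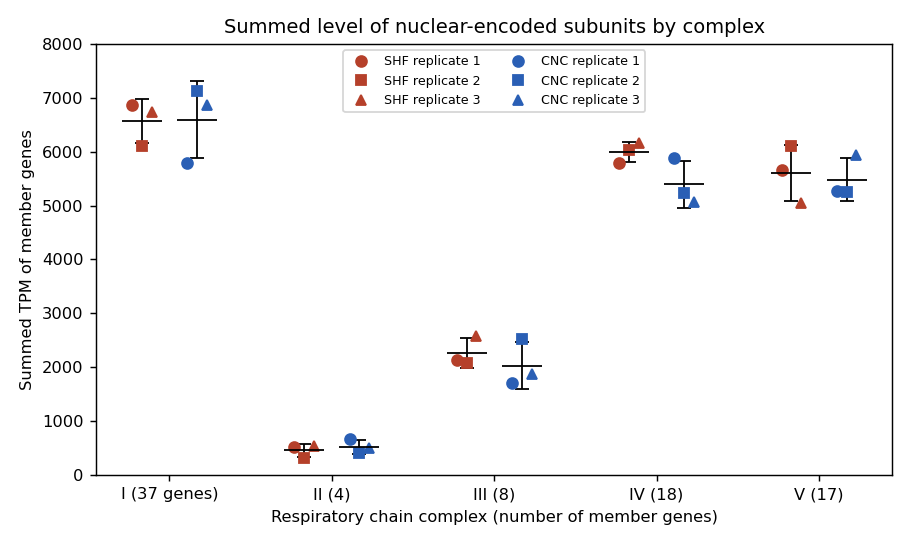
Summed TPM of the member genes of each complex in the 6 libraries, SHF in red and CNC in blue, with horizontal bars for the mean and error bars for the SD over 3 libraries. The lineages overlap in every complex, and complex II, with 4 genes, is lowest.

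The 2 subunit genes with the highest means belonged to complex IV, and *Cox4i1*, which encodes the main form of a subunit at which the enzyme is regulated by ATP, was the highest member in 6 of 6 libraries. *Cox4i1* had 1407, 1523 and 1971 TPM in SHF replicates 1, 2 and 3 and 1529, 1469 and 1557 TPM in CNC replicates. Its mean ranked 92 among all rows of the matrix. *Cox6c*, a small membrane subunit of the same enzyme, was at 812 to 1256 TPM in SHF and 541 to 969 TPM in CNC libraries. Summed over isoforms, the positions of the enzyme spanned a wide range of mean levels over the 6 libraries, from 1602 TPM for position 4 and 922 TPM for 6C to 188 TPM for 7A, 164 TPM for 5A and 161 TPM for 7B. The subunits of 1 complex were therefore not at 1 common transcript level.

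In complex I the most abundant gene was *Ndufa4*, whose product was first assigned to complex I and is now known as a subunit bound to complex IV. It led its complex in 6 of 6 libraries, at 796, 527 and 566 TPM in SHF and 510, 767 and 581 TPM in CNC replicates. *Ndufa1*, a small membrane-arm subunit, followed at 95.3 to 312 TPM in SHF and 185 to 584 TPM in CNC libraries. *Ndufa11*, another membrane-arm subunit, had the lowest mean, with 13.3 to 45.9 and 12.9 to 42.3 TPM. The 7 nuclear core subunits, which hold the flavin and the iron-sulfur clusters or form the ubiquinone site, had a median of 109 ± 29.7 TPM in SHF and 132 ± 36.3 TPM in CNC cells (SD, n = 3). The 28 accessory subunits, which surround this core, counted without *Ndufa4* and its relative *Ndufa4l2*, had a median of 181 ± 17.3 TPM in SHF and 169 ± 15.7 TPM in CNC cells. The accessory median was above the core median in 5 of 6 libraries.

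Of the succinate dehydrogenase genes, *Sdhb*, the iron-sulfur subunit, had the highest mean level and *Sdhc*, a membrane anchor, the lowest. *Sdhb* was at 268, 45.0 and 235 TPM in SHF and 312, 181 and 284 TPM in CNC replicates, with SHF replicate 2 far under the others. *Sdha*, the catalytic flavoprotein, varied least, at 135, 108 and 120 TPM in SHF and 136, 172 and 151 TPM in CNC replicates. *Sdhc* ranged from 4.42 to 89.1 TPM and was the lowest of the 4 in 5 of 6 libraries. *Sdhd*, the other anchor, ranged from 29.2 to 185 TPM.

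In complex III, *Uqcrh*, the acidic hinge protein that helps cytochrome c bind, had the highest mean and led in 4 of 6 libraries. It was at 569, 555 and 792 TPM in SHF and 240, 754 and 517 TPM in CNC replicates. *Uqcrb*, a small subunit near the ubiquinone site, was at 352 to 431 TPM in SHF and 409 to 583 TPM in CNC libraries, above both core proteins in 6 of 6 libraries. The core protein genes were lower, *Uqcrc1* at 72.9 to 343 TPM and *Uqcrc2*, the lowest of the complex by mean, at 86.6 to 187 TPM. *Uqcrfs1*, the Rieske iron-sulfur protein that carries electrons to cytochrome c1, was at 100, 173 and 193 TPM in SHF and 136, 92.1 and 78.7 TPM in CNC replicates.

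In complex V, *Atp5l*, the membrane subunit g, and *Atp5b*, the catalytic beta subunit, had the highest means. *Atp5l* was at 562 to 905 TPM in SHF and 535 to 868 TPM in CNC libraries, and *Atp5b* at 486 to 967 and 556 to 750 TPM. The F1 part holds 3 copies each of alpha and beta and 1 each of gamma, delta and epsilon. Over the 6 libraries the mean transcript levels were 450 TPM for alpha (*Atp5a1*), 690 TPM for beta, 354 TPM for gamma (*Atp5c1*), 293 TPM for delta (*Atp5d*) and 182 TPM for epsilon (*Atp5e*). Beta was above alpha, gamma, delta and epsilon in 6 of 6 libraries, while alpha was above gamma and above delta in 5 of 6. The 3 *Atp5g* genes, which encode the same mature c subunit of the rotating ring, summed to more than alpha in 6 of 6 libraries and more than beta in 5 of 6. Alpha and beta, present in equal copies, were thus unequal, and *Atp5l*, outside the F1 part, had a higher mean than either. *Atp5s*, coupling factor B, had the lowest mean of the members placed in complex V and was at 0 in 2 libraries, SHF replicate 1 and CNC replicate 2. *Atp5sl*, named for its likeness to *Atp5s*, had 1.46, 0 and 43.0 TPM in SHF and 19.6, 0 and 15.0 TPM in CNC replicates. RefSeq names these genes *Dmac2l* and *Dmac2*. They are counted here by name and are not standard subunits of the complex. *Ndufa4l2* and *Cox7a2l* are likewise counted by name, and the alternative of standard subunits only leaves out all of these.

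**Figure D2:**
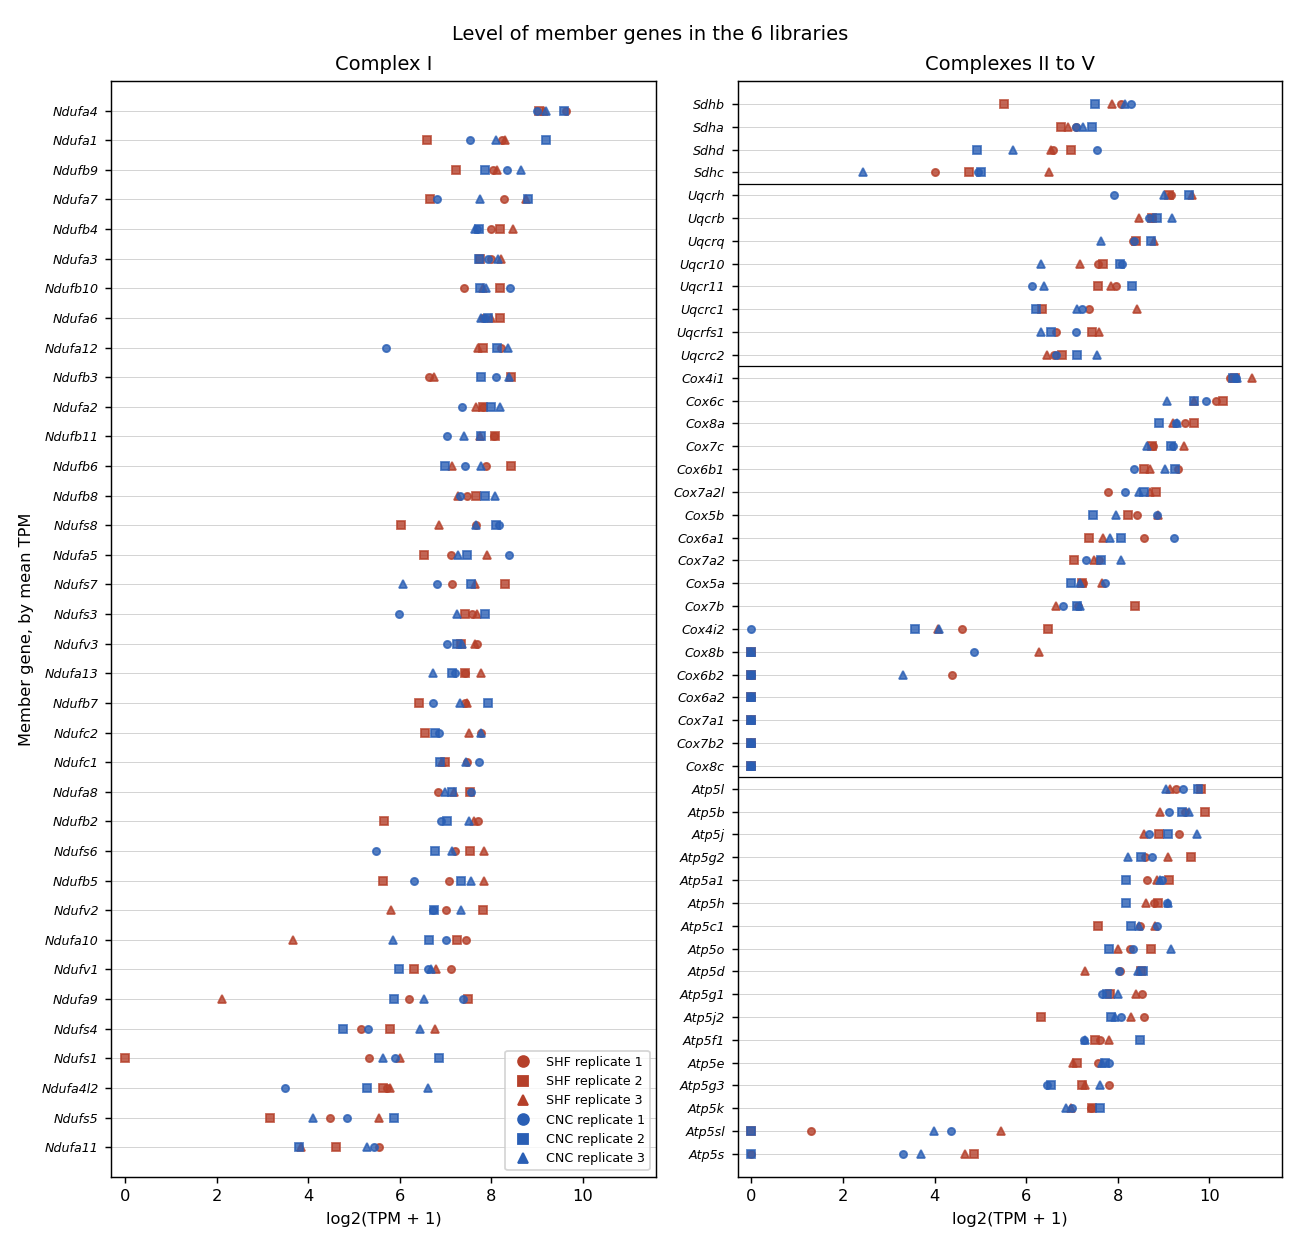
Level of 83 member genes as log2(TPM + 1) in the 6 libraries, complex I on the left and complexes II, III, IV and V from top to bottom on the right, sorted by mean TPM. *Cox4i1* is at the top of its complex in every library, and 4 isoform genes of complex IV lie at 0 in all 6.

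The isoforms of heart, skeletal muscle and testis were listed at 0 or seen in few libraries. *Cox6a2* and *Cox7a1*, forms of contractile muscle, and *Cox7b2* and *Cox8c*, forms of the testis, were listed at 0 in all 6 libraries, while the widespread *Cox6a1*, *Cox7a2*, *Cox7b* and *Cox8a* were above 0 in all 6. *Cox6a1* was at 164 to 601 TPM, *Cox7a2* at 132 to 269 TPM, *Cox7b* at 99.4 to 333 TPM and *Cox8a* at 478 to 808 TPM over the 6 libraries. The heart and skeletal muscle form *Cox8b* reached 76.9 TPM in SHF replicate 3, which was 11.5% of its family, and 28.1 TPM in CNC replicate 1, and it was at 0 in the remaining 4 libraries. These libraries had the highest sum of the 14 cardiomyocyte markers in their lineage, 198 TPM in SHF replicate 3 and 118 TPM in CNC replicate 1. In CNC replicate 1 the sum was mostly *Pln* (54.2 TPM), *Myl4* (26.1 TPM), *Tnnt2* (22.1 TPM) and *Tnni3* (15.6 TPM), while *Myh6*, *Actc1* and *Myl3* were at 0. SHF replicates 1 and 2, with *Cox8b* at 0, had 173 and 147 TPM, and CNC replicates 2 and 3 had 8.57 and 12.0 TPM. Their part in the level of *Cox8b* was not tested. The testis form *Cox6b2* was above 0 only in SHF replicate 1, with 19.7 TPM, and CNC replicate 3, and made up at most 3.011% of its family with *Cox6b1*, which was at 327 to 636 TPM.

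The isoforms linked to low oxygen were expressed at a low share. *Cox4i2*, the lung form that rises in hypoxia, was at 23.2, 88.7 and 16.0 TPM in SHF and 0, 10.9 and 16.1 TPM in CNC replicates. It made up 2.64% ± 2.51 of its family in SHF and 0.585% ± 0.526 in CNC cells (SD, n = 3), and SHF replicate 3 was below CNC replicate 3 in TPM. The difference of 2.06 percentage points was 0.628 without SHF replicate 2. *Ndufa4l2*, a hypoxia-induced relative of *Ndufa4*, was at 51.9, 48.9 and 54.1 TPM in SHF and 10.3, 37.9 and 97.8 TPM in CNC replicates. Its share of the pair was 7.78% ± 1.45 and 7.03% ± 6.53, so that the SHF libraries lay close together inside the wide CNC range.

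Subunits were also grouped by their place in a complex, with isoforms of the same place summed, and in 3 of the 22 groupings (13.6%) the lineages did not overlap, near the 11.8% of all single genes tested. The c subunit of complex V was 1 of these. *Atp5g1*, *Atp5g2* and *Atp5g3* together were at 981, 1147 and 1039 TPM in SHF and 717, 670 and 753 TPM in CNC replicates. The SHF mean of 1056 ± 84.5 TPM was 1.48 times the CNC mean of 713 ± 41.6 TPM (SD, n = 3), and the lineages did not overlap. Each of the 3 genes alone overlapped between lineages. *Atp5g1* was at 371, 226 and 338 TPM in SHF and 201, 216 and 258 TPM in CNC replicates. *Atp5g2* was at 386, 773 and 546 TPM in SHF and 428, 362 and 298 TPM in CNC replicates, and *Atp5g3* at 225, 149 and 155 TPM and 87.4, 92.3 and 196 TPM. Their shares of the sum were alike, with *Atp5g2* at 53.1% ± 14.0 in SHF and 51.1% ± 10.3 in CNC, *Atp5g1* at 30.0% ± 9.32 and 31.5% ± 3.16, and *Atp5g3* at 16.9% ± 5.26 and 17.3% ± 7.60. Of the other groupings, position 8 of complex IV was higher in SHF without overlap, at 728 ± 71.3 against 586 ± 94.2 TPM, and the epsilon subunit of complex V was lower, at 152 ± 33.6 against 212 ± 12.3 TPM. At position 8, *Cox8a* alone overlapped between lineages, and the sum did not because *Cox8b* adds to SHF replicate 3. These sums were not tested, since they were chosen with results of these data known.

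**Figure D3:**
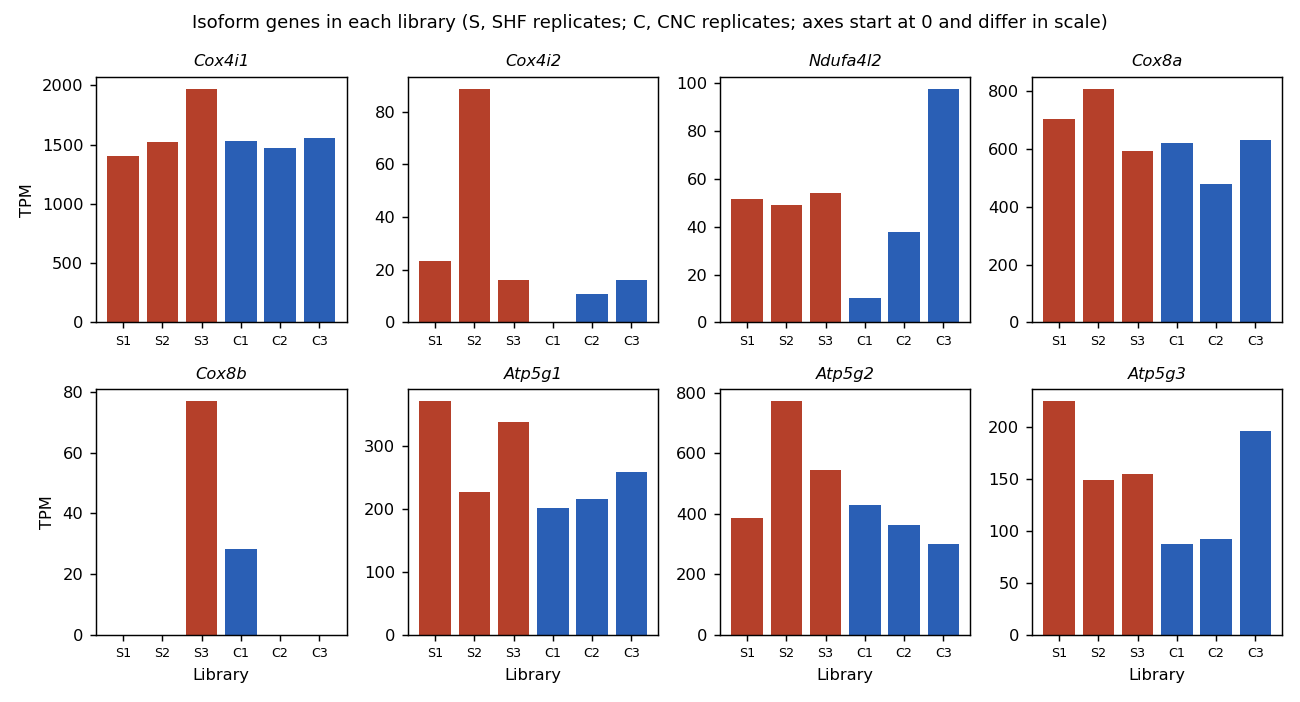
TPM of 8 isoform genes in each library as bars from 0, SHF replicates (S) in red and CNC replicates (C) in blue, each panel on its own scale. *Cox8b* has bars in 1 SHF and 1 CNC library, and each *Atp5g* gene overlaps between the lineages although their sum does not.

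Promoter sequences were read because nuclear respiratory genes are known to share binding motifs of NRF1, GABP (NRF2), YY1 and ERR alpha. RefSeq promoters of GRCm38.p6, from 250 bases before to 50 after a gene's start, were found for 69 members and 27025 genes, and each motif was sought on both strands. The NRF1 motif, read as GCGC, any base and TGCGC, or on the other strand as GCGCA, any base and GCGC, was in the promoters of 17 members (24.6%), against 5.19% of all genes. CCGGAAG of GABP was in 16 members (23.2%), against 9.93%, and AAGATGGC of YY1 in 11 (15.9%), against 3.19%. TCAAGGTCA of ERR alpha was in 2 members (2.90%), against 0.466%. The genes compared were all those with a promoter, expressed here or not, and were not matched to the members for level or base content. GABP and YY1 matches did not overlap in any member promoter. NRF1 matches are given for *Ndufs6*, *Ndufb4*, *Atp5g2* and *Sdha*, which are among the members described between lineages, and for *Cox6a1*, whose muscle isoform was at 0. Each is a window of 30 bases on the minus strand, which is the strand of the gene, 5′ to 3′ with the motif in capitals.
Ndufs6, chr13:73328479-73328508: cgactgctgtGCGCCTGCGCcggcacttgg
Ndufb4, chr16:37654428-37654457: ccttgtgcgcGCGCAGGCGCacttcctgag
Ndufb4, chr16:37654371-37654400: cctcatatccGCGCAGGCGCagatgtgcgc
Ndufb4, chr16:37654540-37654569: gagaagcagtGCGCACGCGCagaatacgcg
Atp5g2, chr15:102671070-102671099: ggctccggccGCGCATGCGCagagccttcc
Sdha, chr13:74350319-74350348: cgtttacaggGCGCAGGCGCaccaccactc
Sdha, chr13:74350276-74350305: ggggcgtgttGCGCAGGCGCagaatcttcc
Sdha, chr13:74350231-74350260: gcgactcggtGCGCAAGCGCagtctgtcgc
Cox6a1, chr5:115349101-115349130: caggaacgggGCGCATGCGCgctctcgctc
Cox6a1, chr5:115349056-115349085: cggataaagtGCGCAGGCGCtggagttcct
The windows differ outside the capitals, and the promoters of 3 of these 5 genes hold the motif more than once. Members with the NRF1 match had a median level of 158 TPM and those without it 190 TPM. With and without the GABP match the medians were 213 and 168 TPM, with and without YY1 169 and 189 TPM, and with and without ERR alpha 124 and 190 TPM. A match is a description of these letters and not a bound site.

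No subunit gene passed the test between lineages. Of the 84 members, 78 had at least 1 TPM in at least 3 libraries and were tested, and the others were *Cox6a2*, *Cox6b2*, *Cox7a1*, *Cox7b2*, *Cox8b* and *Cox8c*. By limma on log2(TPM + 1) over 10185 genes, 0 of 78 members had a Benjamini-Hochberg adjusted p below 0.05, against 0 genes (0.0%) of all genes tested. The smallest adjusted p was 0.797 among members and 0.433 among all genes. At an unadjusted p below 0.05, 0 members were higher in SHF and 1 was higher in CNC, where the shares of all genes were 2.69% and 3.17% (5.86% in either direction). The lineages did not overlap in 3 members with SHF higher and 3 with CNC higher, against 6.11% and 5.68% of all genes tested (11.8% in either direction), so the members' share was not above the background. For 1 gene, the exact permutation test of 3 against 3 libraries (two-sided) has a smallest possible p of 0.1.

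The differences of the members were balanced and small beside those of all genes, many of which are less abundant. Of 78 tested members, 39 had a log2 difference (SHF minus CNC) above 0 and 39 below 0, with a median of 0.0086, while the median of all genes tested was 0.0247. Quartiles were -0.25 and 0.44 for members and -0.71 and 0.71 for all genes. The difference was under 0.5 in size for 50 members and at least 1 for 6. The median was -0.06 for the 37 genes of complex I, 0.16 for the 4 of complex II, 0.37 for the 8 of complex III, 0.09 for the 12 tested of complex IV and -0.02 for the 17 of complex V. With 1 library left out these medians ranged from -0.11 to 0.11 for complex I (above 0 without SHF replicate 2 or CNC replicate 3), from -0.12 to 0.47 for complex II (below 0 without SHF replicate 3, CNC replicate 2 or CNC replicate 3), and from 0.13 (without SHF replicate 3) to 0.45 for complex III. For complex IV the lowest was 0.0093, when SHF replicate 3 was left out, and the highest 0.23, when SHF replicate 1 was, and for complex V they ranged from -0.27 (without CNC replicate 2) to 0.071, so that no direction held for complex I, II or V. Among genes with a mean from 100 to 1000 TPM, the median size of the difference was 0.29 for 64 members and 0.37 for 1310 other genes, so that the sizes were closer at matched level.

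**Figure D4:**
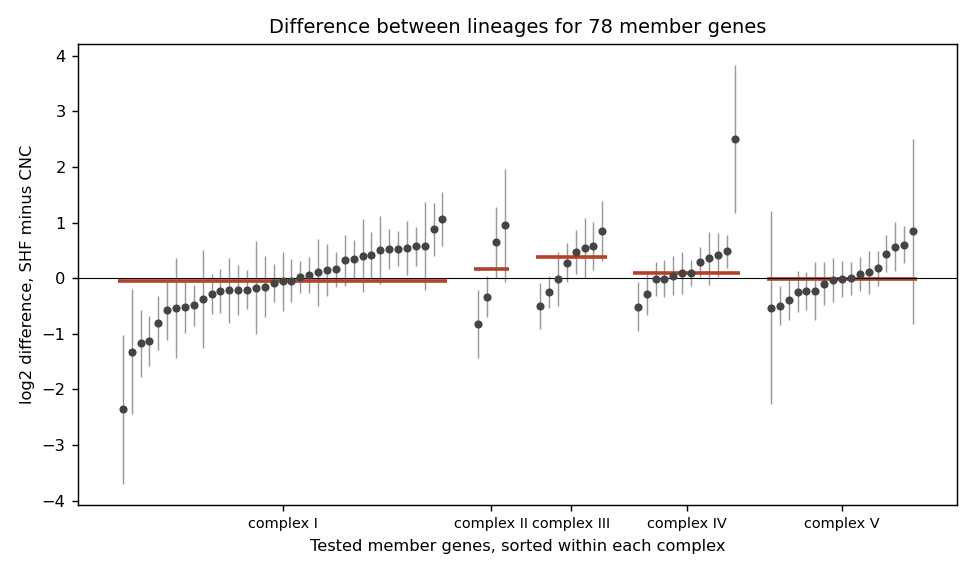
Log2 difference in TPM + 1, SHF minus CNC, of the 78 tested member genes sorted within each complex (points), with the standard error from limma (vertical bars) and the median of each complex (red lines). The points lie on both sides of 0, from -2.36 (*Ndufs1*) to 2.50 (*Cox4i2*).

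Core subunits of complex I were found on both sides of 0, and *Ndufs1* had the lowest difference of the members. *Ndufs8*, an iron-sulfur subunit on the path to ubiquinone, encoded on chromosome 19 (3908863 to 3912774, GRCm38), was at 201, 64.2 and 115 TPM in SHF and 285, 273 and 203 TPM in CNC replicates. The lowest CNC library was just above the highest SHF library, and the log2 difference was -1.13 (SE 0.45, adjusted p = 0.797 by limma). It was the 1 member with an unadjusted p below 0.05, and the difference was -0.72 without SHF replicate 2. *Ndufs1*, the largest iron-sulfur subunit, was at 38.9, 0 and 63.0 TPM in SHF and 59.0, 114 and 48.6 TPM in CNC replicates. Its log2 difference of -2.36 (SE 1.34, adjusted p = 0.874) was -0.47 without SHF replicate 2, where it was listed at 0.

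*Ndufs7*, the iron-sulfur subunit next to ubiquinone, went the other way, at 140, 313 and 198 TPM in SHF and 112, 186 and 65.8 TPM in CNC replicates, with a log2 difference of 0.88 (SE 0.48, adjusted p = 0.874) and overlapping libraries. It was 0.58 without SHF replicate 2 and 0.50 without CNC replicate 3. *Ndufs3*, a core subunit of the peripheral arm, was at 189, 172 and 206 TPM in SHF and 62.2, 231 and 151 TPM in CNC replicates. *Ndufv1*, which binds NADH and the flavin, was at 79.0 to 138 TPM in SHF and 61.8 to 102 TPM in CNC libraries, and its iron-sulfur partner *Ndufv2* at 55.2 to 226 and 105 to 161 TPM. None of these core subunits had an adjusted p below 0.05.

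Among the accessory subunits, *Ndufs6*, a zinc-binding protein of the peripheral arm on chromosome 13 (73319838 to 73328542), was at 147, 186 and 230 TPM in SHF and 43.9, 108 and 141 TPM in CNC replicates. The highest CNC library lay just under the lowest SHF library, and the log2 difference was 1.07 (SE 0.49, adjusted p = 0.849), or 0.58 without CNC replicate 1. *Ndufb4*, a membrane-arm subunit on chromosome 16 (37647170 to 37654453), was at 253, 290 and 354 TPM in SHF and 206, 210 and 198 TPM in CNC replicates, a difference of 0.53 (SE 0.31, adjusted p = 0.874) with close replicates and no overlap. *Ndufa13*, also known as GRIM-19 and named here after its values were seen, was at 171, 172 and 219 TPM in SHF and 147, 140 and 105 TPM in CNC replicates, also without overlap. *Ndufb3*, a membrane-arm subunit, was at 98.4, 345 and 107 TPM in SHF and 272, 219 and 332 TPM in CNC replicates. SHF replicate 2 was the highest of all 6 there, and the log2 difference was -0.81 (SE 0.48, adjusted p = 0.874), or -1.39 without SHF replicate 2 and -0.49 without SHF replicate 1.

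In the other complexes, *Sdha*, on chromosome 13 (74322254 to 74350280), was higher in CNC without overlap, but CNC replicate 1 exceeded SHF replicate 1 only by 136 against 135 TPM. *Atp5e*, the epsilon subunit of complex V on chromosome 2 (174461072 to 174464105), was at 190, 137 and 128 TPM in SHF and 225, 209 and 201 TPM in CNC replicates, a log2 difference of -0.50 (SE 0.35, adjusted p = 0.884). *Atp5g2* had a difference of 0.60 (SE 0.33, adjusted p = 0.874), or 0.35 without SHF replicate 2. *Cox4i2*, on chromosome 2 (152754173 to 152765037), had the largest difference of the members at 2.50 (SE 1.33, adjusted p = 0.874), and was 1.23 without CNC replicate 1, where it was listed at 0.

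Libraries of the same lineage differed by about as much for subunit genes as for other genes of their level. The SD of log2(TPM + 1) within lineages had a median of 0.45 (from 0.14 to 1.56) over the 64 members with a mean from 100 to 1000 TPM and 0.50 (quartiles 0.35 and 0.70) over 1310 other genes, and 36 of 64 members lay under the median of the others. Of the 13 members from 10 to 100 TPM the median was 1.11, against 1.27 for 5830 others. *Ndufa6*, an accessory subunit of the peripheral arm of complex I, had the least spread, with an SD of 0.14, followed by *Sdha* at 0.16, *Ndufb4* and *Cox4i1* at 0.18. *Ndufa9*, another accessory subunit, had 72.4, 180 and 3.34 TPM in the SHF libraries, and *Ndufa10* at 174, 151 and 11.8 TPM, so that SHF replicate 3 was low in both. SHF replicate 2, the library with the fewest genes above 0, was the lowest of the 6 for 19 of 78 members (24.4%) and for 23.1% of the 1522 genes tested with a mean of at least 100 TPM. It was also the highest of the 6 for 17 members (21.8%) and 24.8% of those genes, the largest shares at both ends. Members with a mean of at least 10 TPM that were listed at 0 in some library were *Ndufs1*, *Cox4i2*, *Cox8b*, *Atp5sl* and *Atp5s*, while none of the 64 members from 100 to 1000 TPM was, against 9 (0.687%) of the 1310 others. Of the 13 tested members from 10 to 100 TPM, 4 (30.8%) were at 0 in some library, near the 33.4% of the 5830 others.

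**Figure D5:**
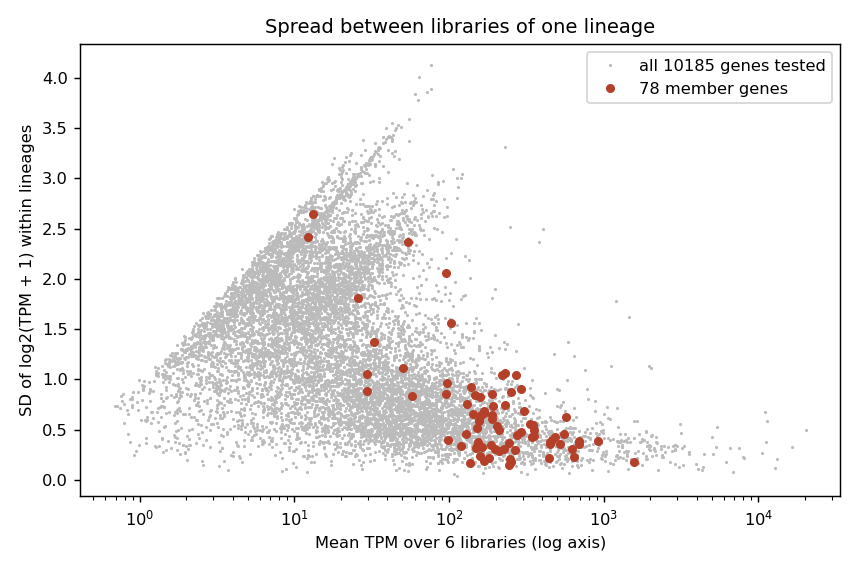
SD of log2(TPM + 1) between libraries of the same lineage against mean TPM over 6 libraries (log axis) for the 10185 genes tested (grey) and the 78 member genes (red). The spread falls with the level, and the members lie within the cloud of other genes.

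Other genes of mitochondrial metabolism were read from the same fit, and 0 genes of any of the 5 lists had an adjusted p below 0.05. Of 38 tested assembly factors for the complexes, 1 was higher in SHF and 1 in CNC at an unadjusted p below 0.05 (5.26%, against 5.86% of all genes tested), and the list summed to 1517 to 1758 TPM in SHF and 1240 to 1577 TPM in CNC libraries. The most abundant were *Coa3*, at 123 to 328 TPM, and *Cox20*, at 104 to 244 TPM over the 6 libraries, which both help to build complex IV. *Ecsit*, an assembly factor of complex I, had 17.6, 95.8 and 55.0 TPM in the SHF libraries and was at 0 in all 3 CNC libraries, with an adjusted p of 0.475 by limma. None of the subunit genes was split between the lineages in this way.

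The 16 tested enzymes of the TCA cycle and its entry summed to 1288 to 1576 TPM in SHF and 1312 to 1736 TPM in CNC libraries, with 0 at an unadjusted p below 0.05. *Pdha1*, of pyruvate dehydrogenase, was at 141 to 264 TPM in SHF and 188 to 256 TPM in CNC libraries, and *Mdh2*, malate dehydrogenase, at 253, 239 and 219 TPM in SHF and 171, 137 and 142 TPM in CNC replicates, without overlap (log2 difference 0.66, SE 0.33, adjusted p = 0.874). *Suclg2*, a subunit of succinyl-CoA ligase, was the other of the TCA genes without overlap (12.5% of 16, against 11.8% of all genes tested), with CNC higher, at 14.3, 0.45 and 24.3 TPM in SHF and 34.5, 34.9 and 30.2 TPM in CNC replicates. The 14 glycolysis genes summed to 3967 to 5946 TPM in SHF and 3448 to 4725 TPM in CNC libraries, again with 0 at an unadjusted p below 0.05. *Gapdh* was at 1506 to 2520 and 1193 to 1928 TPM, and *Aldoa*, aldolase, at 557 to 812 and 524 to 730 TPM.

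The 12 genes of electron carriers and of ATP, phosphate and ion exchange summed to 3579 to 3611 TPM in SHF and 2858 to 3367 TPM in CNC libraries, ranges that did not overlap. *Slc25a5*, an ADP/ATP exchanger named after its values were seen, was at 655, 759 and 502 TPM in SHF and 295, 459 and 469 TPM in CNC replicates. Without it the other 11 genes summed to 2852 to 3077 and 2399 to 2898 TPM, which overlap. Leaving out *Slc25a4* in its place also gives ranges that overlap, so the separation does not rest on *Slc25a5* alone. *Slc25a5* was the 1 gene of the 12 without overlap (8.33%, against 11.8% of all genes tested). None of the 12 was at an unadjusted p below 0.05. The leading genes were *Slc25a4*, another ADP/ATP exchanger, at 617 to 1352 TPM in SHF and 709 to 977 TPM in CNC libraries, and *Slc25a3*, the phosphate carrier, at 553 to 770 and 621 to 700 TPM. Of 13 regulators of mitochondrial biogenesis, 8 were tested, with 0 at an unadjusted p below 0.05 and sums of 123 to 174 TPM in SHF and 116 to 142 TPM in CNC libraries. *Gabpa* and *Gabpb1*, which form the factor GABP, had the highest means, at 14.3 to 70.3 and 0 to 52.3 TPM over the 6 libraries. *Nrf1* was at 32.7, 12.8 and 13.9 TPM in SHF and 8.32, 9.04 and 4.04 TPM in CNC replicates, *Tfam*, the mitochondrial transcription factor, at 0 to 31.6 TPM, and *Ppargc1a*, the coactivator of biogenesis, at no more than 5.16 TPM. These levels were under those of most subunit genes, though some members, such as *Ndufa11* and *Atp5s*, had lower means than *Gabpa*. The subunits encoded in mitochondrial DNA were not analysed here.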

How the data were processed

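The authors estimated gene levels from SmartSeq2 reads by RSEM 1.2.25 after alignment to mm10 by Bowtie2, and deposited TPM for each library. Which gene annotation they used is not given in the sources used here. Depth is unknown, so counting intervals were not computed. The study describes 3 biological replicates per group, and whether each came from 1 or pooled animals is not given in the sources used here. Members, lists and groupings were chosen with earlier results of these data known.

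The lineages were compared (SHF minus CNC) in limma 3.58.1 under R 4.3.3, by lmFit and eBayes with a variance trend, on log2(TPM + 1). All 10185 genes that reached 1 TPM in 3 or more of the 6 libraries entered the fit, and p-values were adjusted over them by Benjamini-Hochberg with a threshold of 0.05. The pseudocount understates changes of low genes. Groups follow the sample titles. Named with values were the 2 highest and the lowest member of each complex by mean, the core subunits of complex I, the *Sdh* genes, the isoform families, the 5 members with the smallest p in each direction, members listed at 0 in some library, and the 2 highest genes of each metabolic list with *Ecsit*, *Nrf1*, *Tfam* and *Ppargc1a*. Others that the text names were chosen after their values were seen, and 1 member that the rule names is not reported here.

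Gene positions came from GENCODE M21, on GRCm38 (mm10), where 83 members had a single position. Exons of 25 members overlap another coding gene, among them *Ndufs1* (with *Eef1b2*), *Ndufs6* (*Mrpl36*), *Ndufa13* (*Tssk6*) and *Cox4i1* (*Emc8*), and counting by strand is not stated. At least 25% of the 31-mers of 13 members, among them *Ndufb4*, *Ndufs3*, *Uqcrb*, *Atp5g2* and *Atp5l*, occur in GENCODE transcripts of another gene, and for 2 members, *Cox7c* and *Ndufs5*, in those of another gene of the matrix, so their values are uncertain where reads were split. Alternatives were pseudocounts of 0.1 and 5, no filter or a mean of at least 10 TPM, quantile normalization, median-of-ratios scaling, library weights, eBayes without a trend, a replicate block, standard subunits only (with *Ndufa4* under complex IV), members without the most abundant of each complex, and each library left out in turn. Summaries used Python 3.11.15 with pandas 2.3.3, and plots used matplotlib 3.10.9. The single-cell and imaging data were not analysed here.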

Additional observations from a re-analysis of the deposited data

How the results depend on the processing

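No member had an adjusted p below 0.05 under any of the alternatives run, and the 5 members with the smallest p in each direction kept it in each of 150 refitted values, with a smallest adjusted p of 0.518. Of 251 summary values under the alternatives, 24 moved by more than the spread between replicates or, for counts, by over 1.5 times. Medians near 0 that changed sign within that spread, as in complexes I and II, are not among them. At an unadjusted p below 0.05, the count of members higher in CNC changed from 1 to 0 with eBayes without a trend and was 0 to 3 with 1 library left out (2 without SHF replicate 2, 3 without SHF replicate 3, and 0 without CNC replicate 1 or without CNC replicate 2). The count higher in SHF changed from 0 to 1 with a pseudocount of 5 and was 0 to 2 with 1 library left out, where it stayed at 0 only without SHF replicate 3. Counts of members whose lineages do not overlap, 3 and 3, rose to 8 to 9 with SHF higher and 4 to 9 with CNC higher, since each library left out drops a requirement, and the shares of all genes tested rose to 10.0% to 12.9% and 9.53% to 12.1%. The median log2 difference of complex V, -0.02, ranged from -0.27 (without CNC replicate 2) to 0.071 (without CNC replicate 3). The log2 ratio of the summed level of the members changed from 0.06 to -0.017 under median-of-ratios scaling. With the replicate number as a block, 1 member was higher in SHF at an unadjusted p below 0.05 and no call changed. Libraries with the same number did not deviate together over the genes tested (correlations of -0.011, -0.0044 and -0.011). Noise of single libraries can also bring such values near 0, so they do not decide whether the numbers pair the libraries. Depth is unknown, and a member listed at 0 in a library may be expressed there.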

Other observations

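Of the members, 3 lie on the X chromosome, namely *Ndufa1*, *Ndufb11* and *Cox7b*. In the libraries with *Xist* above 0, SHF replicates 2 and 3, *Ndufa1* was at 95.3 and 312 TPM, *Ndufb11*, a membrane-arm subunit of complex I, at 272 and 216 TPM, and *Cox7b*, a small subunit of complex IV, at 333 and 99.4 TPM. In SHF replicate 1 and the 3 CNC libraries, where *Xist* was listed at 0, they ranged from 185 to 584 TPM, from 131 to 267 TPM and from 111 to 145 TPM.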
